A study of Mus musculus with 4 samples.

Results

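The ERK feedback genes were described in luminal cells of the mouse mammary gland that carried either wild-type Erbb3 or the V943R form. The 10 genes are Dusp4, Dusp5 and Dusp6, Spry1, Spry2 and Spry4, Spred1, Errfi1, and Etv4 and Etv5. They were chosen by name, and all 10 were found among the 52636 genes of the table, of which 32271 had a molecule in any cell. The cells came from the thoracic and abdominal glands of C57BL/6N mice aged 6 weeks, with 3 mice of each genotype pooled. The WT mice were Erbb3+/+;MMTV-Cre and the mutant mice were Erbb3V943R/V943R;MMTV-Cre, so both genotypes carried the Cre transgene, which the MMTV promoter drives in mammary epithelium. The V943R allele was a conditional knock-in that yields wild-type protein from a cDNA cassette until Cre has removed it, and cells that escaped Cre were not told apart here.

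ERBB3 binds neuregulins but has very little kinase activity of its own, and it signals by activating a partner such as ERBB2. Below the ErbB receptors, Ras, RAF and MEK activate the kinases ERK1 and ERK2, which switch on a set of genes whose products turn the same pathway down. The DUSP proteins remove phosphate from ERK, the sprouty and SPRED proteins restrain the steps between receptor and RAF, ERRFI1 binds and blocks the kinase domains of the EGFR family, and ETV4 and ETV5 are transcription factors made in response to ERK. The mRNA of these genes is therefore widely used as a readout of ERK activity, although other pathways also act on them.

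Each pool was sequenced as 2 droplet libraries, called A and B here, with 30019745 to 38009351 unique molecular identifiers (UMIs, 1 for each captured mRNA molecule) in 6849 to 9627 cells. The level of a gene is its UMIs per 1000000 UMIs of the same cells (CPM), and a difference is the log2 ratio of mutant to WT CPM. With 1 pool per genotype no test between genotypes was possible, and the 95% intervals cover counting error only. They are exact and come from the Poisson distribution for a level, from the binomial distribution of the UMIs of both genotypes for a log2 ratio, and from the binomial distribution for a share. The spread between the libraries of a genotype was wider than counting alone would give, with a chi-square of 4.78 per degree of freedom in WT and 5.69 in the mutant. Between 71 and 111 cell barcodes were shared by each pair of libraries, at most 1.28% of a library. The authors' classes were luminal progenitor (LP, clusters 1 and 2), luminal intermediate (LI, cluster 3) and mature luminal (ML, clusters 4 to 11). LP libraries had a summed CPM of 7375 to 8112 over 6 progenitor markers against 101.5 to 114.5 in ML, and ML libraries had 7523 to 8130 over 6 mature luminal markers against 885.8 to 964.9 in LP. Clusters 12 and 13 carried fibroblast with endothelial, and immune, markers. Erbb3 mRNA was at 60.9 and 63.3 CPM in the WT libraries and at 29.8 and 30.8 CPM in the mutant libraries, and Erbb2 was at 41.3 CPM in both genotypes. The Erbb3 count does not tell the alleles apart. The cDNA cassette carries a human growth hormone 3′ end, and whether these 3′ libraries counted its mRNA as Erbb3 was not tested.

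In WT cells most of the feedback genes were highest in luminal progenitors. Since the authors drew the clusters from the same values, these levels are a description with no test. Of the 10 members, 7 (Dusp5, Dusp6, Spry1, Spry2, Spry4, Spred1 and Etv5) had a higher level in LP than in ML cells with an interval of the log2 ratio well above 0. Errfi1 was nearly even between these classes, Etv4 had an interval that included 0, and Dusp4 was higher in ML cells. The share of all genes higher in LP than in ML cells was not taken. The count of 7 therefore does not show a trait particular to these genes.

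**Figure D1:**
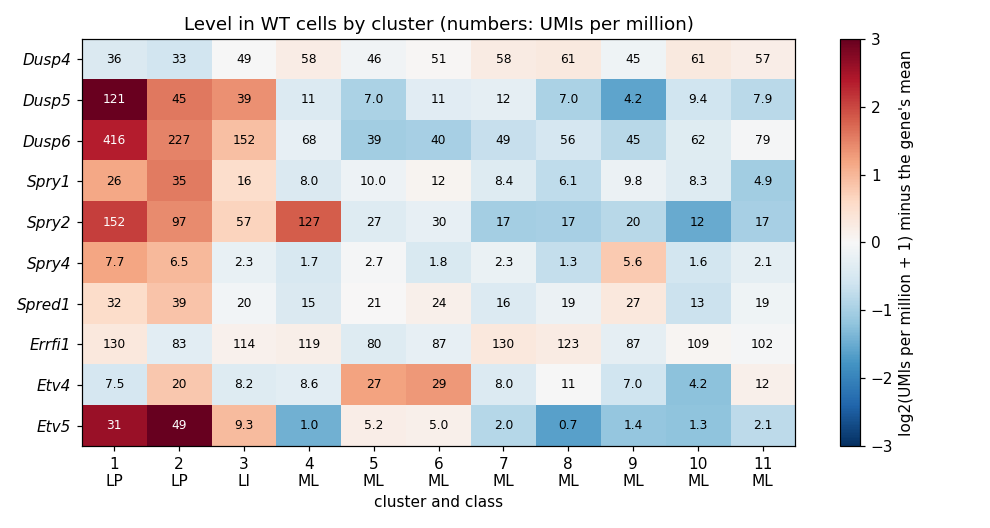
Level of each ERK feedback gene in WT cells of the 11 epithelial clusters. Colour is log2(CPM + 1) minus the mean of that gene over the clusters, and the printed numbers are CPM. Dusp5, Dusp6 and Etv5 are strongest in LP clusters 1 and 2, Spry2 stands out in ML cluster 4, and Etv4 is highest in ML clusters 5 and 6.

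Dusp6 (ENSMUSG00000019960, GRCm38 chr10:99263231-99267489, plus strand) encodes a cytoplasmic phosphatase specific for ERK. In WT cells it was at 415.6 CPM in cluster 1, 226.7 CPM in cluster 2 and 152.3 CPM in LI cells, and it lay between 38.6 and 79.3 CPM in the ML clusters. The LP level exceeded the ML level by 2.67 on the log2 scale (95% interval 2.60 to 2.74). Cells of the LP class held 41.5% of all Dusp6 UMIs in WT although they held 11.7% of all UMIs. Among ML clusters, cluster 11 was highest and exceeded the other ML cells by 0.55 (interval 0.43 to 0.67).

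Dusp5 (ENSMUSG00000034765, chr19:53529109-53542431, plus strand) encodes a nuclear ERK phosphatase. Its WT level was 120.7 CPM in cluster 1, 45.3 CPM in cluster 2 and 39.5 CPM in LI cells, and it did not exceed 11.9 CPM in any ML cluster. The LP level was above the ML level by 3.44 on the log2 scale (interval 3.29 to 3.60). The 83 WT immune cells of cluster 13 also carried it, at 89.7 CPM from 24 UMIs. These cells held epithelial RNA as well, with a summed CPM of 4128 to 4891 over the pan-luminal markers and of 252.5 to 733.3 over the progenitor markers, and its part in that level was not tested. After each cell had been thinned to 1000 UMIs, 9.72% of WT LP cells and 7.23% of WT cells of cluster 13 had a Dusp5 UMI, against 0.967% in ML cluster 4.

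Dusp4 (ENSMUSG00000031530, chr8:34807297-34819894, plus strand) encodes a nuclear phosphatase that acts on ERK and related kinases. It went the opposite way, with 35.3 CPM in LP, 49.2 CPM in LI and 44.9 to 61.1 CPM in the ML clusters of WT. Its ML level was 1.61 times its LP level in WT and 1.78 times in the mutant.

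The start regions of 4 members are shown because they hold, or lack, the short motifs bound by factors that ERK acts on. RefSeq (GRCm38.p6) gave a promoter for 7 of the 10 members, each 250 bases before to 50 bases after the start site. Both strands were searched for the ETS core CGGAAG, the cyclic AMP response element TGACGTCA, the AP-1 site TGAGTCA, and the CArG box bound by serum response factor. Of all 32851 promoters of this length, 16.9% held the ETS core, 1.79% the cyclic AMP response element, 5.20% the AP-1 site and 1.63% a CArG box. Among the 7 members the ETS core was found in Dusp6 and Spred1, the cyclic AMP response element in Errfi1, the CArG box in Dusp5 and the AP-1 site in 0. The shares are of single promoters, whereas a member was counted if any of its promoters matched. Errfi1 and Etv5 each had a pair of them. Each printed stretch is 100 bases before an annotated start and overlaps no exon of its gene, read 5′ to 3′ on the plus strand, with matches in capitals.
Dusp6, chr10:99263131-99263230, ETS core on the opposite strand: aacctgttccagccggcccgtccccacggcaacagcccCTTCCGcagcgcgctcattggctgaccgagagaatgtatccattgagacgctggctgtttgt
Dusp5, chr19:53529009-53529108, adjoining CArG boxes: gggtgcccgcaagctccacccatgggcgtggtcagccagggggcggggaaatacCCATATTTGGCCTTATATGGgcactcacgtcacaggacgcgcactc
Errfi1, chr4:150854970-150855069, cyclic AMP response element: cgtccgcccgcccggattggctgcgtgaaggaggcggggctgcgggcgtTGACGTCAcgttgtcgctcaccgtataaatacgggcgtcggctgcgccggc
Spry1, chr3:37639847-37639946, with none of these letters: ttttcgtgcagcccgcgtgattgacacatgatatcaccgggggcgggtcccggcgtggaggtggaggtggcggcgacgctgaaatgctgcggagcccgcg
Errfi1 has a pair of RefSeq start sites, and the stretch shown precedes the downstream one and lies inside the gene, in an intron of its longer transcript. The 100 bases before the upstream start site of Errfi1 (chr4:150853696-150853795) held none of the motifs. A match is a description of the letters and not a bound site. The matches lie at bases -62 to -57 of Dusp6, -82 to -63 of Dusp5 and -51 to -44 of Errfi1, counted from the RefSeq start site with -1 as the base before it.

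Etv5 (ENSMUSG00000013089, chr16:22381309-22439719, minus strand) was found mostly in progenitors and intermediate cells. In WT it was at 31.2 CPM in cluster 1, 49.4 CPM in cluster 2 and 9.33 CPM in LI cells, and at 0.731 to 5.22 CPM in the ML clusters. The LP level was above the ML level by 4.06 on the log2 scale (interval 3.75 to 4.37), and LP cells held 61.3% of its UMIs. Its relative Etv4 (ENSMUSG00000017724, chr11:101769742-101785371, minus strand) had another distribution. Etv4 was highest in the ML clusters 6 and 5, at 28.7 and 26.8 CPM, and in LP cluster 2, at 20.1 CPM, and lay between 4.16 and 12.4 CPM in the other epithelial clusters. The WT level of Etv4 in cluster 6 exceeded that in cluster 8 by 1.39 on the log2 scale (interval 0.98 to 1.80).

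Spry2 (ENSMUSG00000022114, chr14:105891947-105896819, minus strand), which encodes a sprouty inhibitor of receptor signalling, was high in progenitors and, among the ML clusters, in cluster 4. The WT libraries had 141.4 and 161.3 CPM in cluster 1 and 118.0 and 134.5 CPM in ML cluster 4, and the mutant libraries had 159.2 and 137.3 CPM and 129.0 and 123.6 CPM in the same clusters. The libraries of the genotypes overlapped in both clusters. The remaining ML clusters lay between 11.9 and 29.8 CPM in WT and between 6.03 and 36.8 CPM in the mutant. Cluster 4 held 53.0% of the Spry2 UMIs of WT ML cells and 14.1% of all their UMIs, and in the mutant these shares were 52.3% and 14.7%. Cluster 4 exceeded ML cluster 7 by 2.89 on the log2 scale in WT (interval 2.66 to 3.12) and by 2.92 in the mutant (interval 2.70 to 3.16). With cells thinned to 1000 UMIs, 11.9% of WT cells of cluster 4 (interval 10.5% to 13.3%) and 11.8% of WT LP cells had a Spry2 UMI, against 1.2% of the 83 WT immune cells of cluster 13 (interval 0.0305% to 6.53%) and 5.19% of the mutant ones (interval 1.43% to 12.8%). The 43 WT stromal cells of cluster 12 also carried Spry2, at 222.8 CPM from 25 UMIs and a thinned share of 11.6% (interval 3.89% to 25.1%), and the 33 mutant cells of that cluster held 1 UMI of it. The WT cells of cluster 12 also carried more epithelial RNA, with a summed CPM of 4612 to 5170 over 3 pan-luminal markers against 600.6 to 1260 in the mutant libraries, and of 1037 to 1183 against 270.3 to 794.1 over the progenitor markers. Over 6 basal markers the sums were 87.6 to 796.3 CPM in the WT and 0 to 27.4 CPM in the mutant libraries. The part of luminal or basal RNA in the Spry2 level of cluster 12 was not tested. The median depth was 3322 UMIs in cluster 4, 2018 in LP and 1899 in cluster 13.

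Spry1, Spred1 and Spry4 were also higher in progenitors, and Errfi1 was nearly even between the classes but not between clusters. Spry1 (ENSMUSG00000037211, chr3:37639947-37644598, plus strand) was at 26.2 and 34.8 CPM in WT clusters 1 and 2 and between 4.89 and 11.8 CPM in ML clusters, and its LP level was above its ML level by 1.83 on the log2 scale (interval 1.59 to 2.06). Spred1 (ENSMUSG00000027351, chr2:117121374-117182279, plus strand), a sprouty-related inhibitor of Ras signalling, was higher in LP by 0.92 (interval 0.73 to 1.11). Spry4 (ENSMUSG00000024427) was sparse, at 7.39 CPM in LP and 1.97 CPM in ML cells of WT. Errfi1 (ENSMUSG00000028967, chr4:150853919-150868892, plus strand) lay between 80.2 and 130.3 CPM in all 11 epithelial clusters of WT. Its log2 ratio of cluster 1 to cluster 2 was 0.64 in WT (interval 0.40 to 0.89). Its ratio of cluster 6 to cluster 8 was -0.50 (interval -0.66 to -0.33). In WT its levels could not be told apart from counting error between LP and LI (log2 ratio 0.05, interval -0.08 to 0.19) or between LI and ML (0.05, interval -0.05 to 0.16). LP exceeded ML by 0.11 in WT (interval 0.01 to 0.20) and by 0.29 in the mutant (interval 0.20 to 0.38). In the mutant LP also exceeded LI by 0.12 (interval 0.001 to 0.24), and LI exceeded ML by 0.17 (interval 0.08 to 0.27). These intervals leave out the spread between libraries. In LI cells the log2 ratios of a single mutant to a single WT library ran from 0.05 to 0.52 for Errfi1. Such small gaps between classes therefore cannot be told apart from that spread.

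Some profiles were shared over the 11 epithelial clusters of WT. Dusp5 and Dusp6 had a Pearson correlation of 0.94 on log2(CPM + 1), Spred1 and Dusp4 of -0.93, and Errfi1 and Etv4 of -0.66. These are descriptions over 11 clusters of the same libraries and carry no p. Among the 9855 genes with at least 500 UMIs in WT, those closest to Dusp6 were Dixdc1, Rab4a and Vdr (r of 0.98 each). For Spry2 they were Notch2 (0.98), Lyrm4 (0.97) and Mkl2 (0.94), and for Dusp5 they were Sertad1, Mapkapk3 and Slc35e4 (0.99 each). Dusp4 was closest to Sesn2, Hagh and Slc35f3 (0.97 each), and Spry1 to Nudt4, Ube2z (0.97 each) and Ifi27l2a (0.96). Spred1 was closest to Cnot8, 2810408A11Rik (0.96 each) and Ino80d (0.95), and Etv4 to Hnrnph3, Selenoh and Phf6 (0.95 each). The closest genes to Errfi1 were Plekhm1 (0.93), Clip1 (0.91) and Rit1 (0.90).

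The comparison of genotypes asked how the feedback genes stood when the activator function of ERBB3 was impaired. Spry1 alone met the rule for a change, and it was higher in the mutant. Dusp6 was lower and Errfi1 higher in the mutant, by less than 1.5-fold, in every luminal class. The members did not share a direction. A change was called where the CPM differed at least 1.5-fold, the higher genotype had at least 50 UMIs, and both libraries of 1 genotype lay beyond both of the other.

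In all cells, 1 of 10 members was called higher, against 3.24% of the 16403 genes tested, and 0 were called lower, against 1.18%. Libraries did not overlap, with the mutant higher, for 6 members (Dusp5, Spry1, Spry2, Spry4, Errfi1 and Etv5; 31.8% of all genes), and with the mutant lower for 2 (Dusp6 and Etv4; 22.5%). In LP cells 0 members were called higher or lower (2.23% and 0.606% of genes), and the libraries did not overlap for 4 that were higher (Spry1, Spry4, Errfi1 and Etv5; 23.1%) and 3 that were lower (Dusp4, Dusp5 and Dusp6; 18.1%). In ML cells outside cluster 11, 1 member was called higher (2.67% of genes) and 0 lower (1.04%), and the libraries did not overlap for 2 that were higher (Spry1 and Errfi1; 25.4%) and 4 that were lower (Dusp6, Spry4, Spred1 and Etv4; 26.6%). In cluster 11, with 15.4% of the cells in WT and 4.85% in the mutant, 4 members met the minimum of UMIs. The minimum is asked of the higher genotype. Spry2 (163 UMIs in WT and 44 in the mutant), Etv4 (117 and 31) and Dusp5 (74 and 21) missed it because the mutant was higher. WT had 9405963 UMIs in this cluster and the mutant 2407631, so genes lower in the mutant could pass at lesser levels than higher ones. This shapes the shares of all genes in cluster 11. Of the 4 members tested, 0 were called higher or lower (0.937% and 3.99% of genes). Dusp4 and Errfi1 were higher without overlap of the libraries (21% of genes), and Dusp6 was lower (23.6%).

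**Figure D2:**
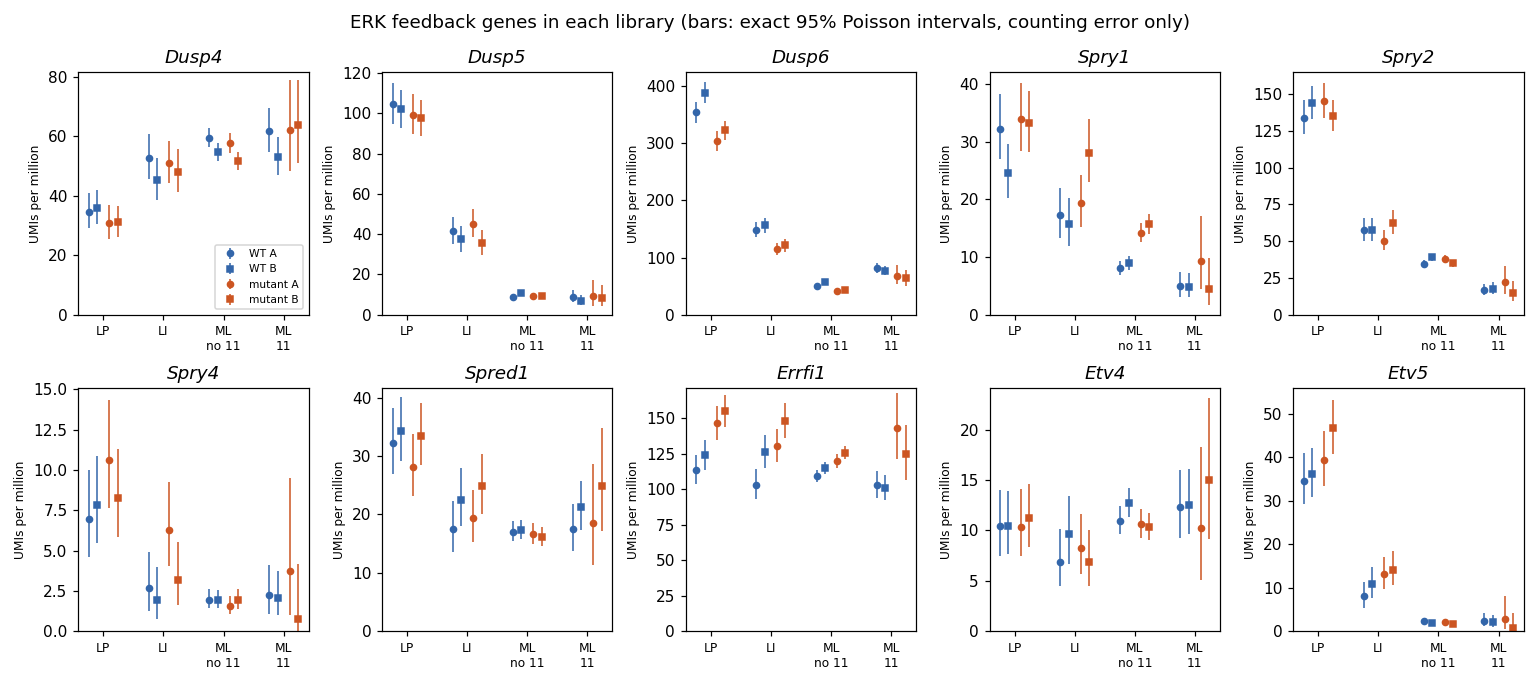
CPM of each ERK feedback gene in the 4 libraries, in LP cells, LI cells, ML cells outside cluster 11 and cluster 11. Blue is WT, orange is mutant, circles and squares are libraries A and B, and bars are exact 95% Poisson intervals. The mutant libraries of Spry1 lie at 14.2 and 15.7 CPM in ML cells outside cluster 11, above the WT libraries at 8.07 and 8.99 CPM.

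Spry1, the sprouty that restrains signalling from several growth factor receptors, was at 11.4 and 10.97 CPM in the WT libraries and at 17.3 and 19.4 CPM in the mutant libraries over all cells. Both mutant libraries were above both WT libraries, and the level was 1.64 times as high (log2 difference 0.71, interval 0.58 to 0.85). In ML cells outside cluster 11 the WT libraries had 8.07 and 8.99 CPM and the mutant libraries 14.2 and 15.7 CPM, a difference of 0.81 (interval 0.63 to 0.99). Markers of other cell types also differed in these ML cells. The summed level of 5 fibroblast markers was 8.91 to 11.2 CPM in the WT and 4.15 to 4.56 CPM in the mutant libraries, with Dcn called lower, and that of 6 immune markers was 3.17 to 4.17 CPM and 4.64 to 6.23 CPM, with Cd74 called higher. The cells had been enriched for epithelium and sorted for luminal cells. The part of these markers in the Spry1 result was not tested. The difference was 0.52 in LI cells (interval 0.18 to 0.86) and 0.25 in LP cells (interval -0.00 to 0.50), where the WT libraries at 32.2 and 24.5 CPM nearly reached the mutant libraries at 33.9 and 33.2 CPM. Whether the difference itself was larger in ML than in LP cells was not tested. Spry1 was higher in the mutant in 10 of 11 epithelial clusters, with cluster 2 as the exception (34.8 CPM in WT and 29.3 CPM in the mutant). The share of all genes higher in at least 10 clusters is not given here, so this count has no background. That share can be no lower than the 3.69% of genes that were higher in 11 of 11. With the clusters of the mutant weighted to their WT sizes the difference was 0.60.

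Dusp6 was lower in the mutant in all 4 sets of epithelial cells, without overlap of the libraries in any. Of all genes, 18.1% were lower without overlap in LP cells, 26.6% in ML cells outside cluster 11 and 23.6% in cluster 11. The share in LI cells and the share lower in all 4 sets at once were not taken. In LP cells it was at 353.8 and 387.6 CPM in the WT libraries and at 303.2 and 322.3 CPM in the mutant libraries, a log2 difference of -0.24 (interval -0.32 to -0.17). In LI cells the WT libraries had 148.6 and 156.3 CPM and the mutant libraries 114.5 and 121.2 CPM (-0.37, interval -0.50 to -0.24). In ML cells outside cluster 11 the values were 50.7 and 57.5 CPM in WT and 41.0 and 43.6 CPM in the mutant (-0.36, interval -0.45 to -0.27), and in cluster 11 they were 81.6 and 77.2 CPM in WT and 68.7 and 63.9 CPM in the mutant (-0.26, interval -0.52 to -0.02). These differences are each of under 1.5-fold, and none met the rule for a change. Dusp6 was lower in 11 of 11 epithelial clusters, as were 1.54% of the genes tested, and the differences ran from -0.48 in cluster 4 to -0.09 in cluster 9. The clusters come from the same libraries, so they are not separate observations of the genotypes. The share is over all genes that met the minimum of UMIs over all cells, and genes matched to Dusp6 in level were not taken apart. The libraries overlapped in clusters 5 and 9, and the interval included 0 there and in clusters 2 and 6. The share of LP cells with a Dusp6 UMI, thinned to 1000 UMIs, was 30.0% in WT (interval 28.4% to 31.6%) and 26.1% in the mutant (interval 24.5% to 27.7%). Over all cells the difference was -0.21, and it was -0.30 with the clusters weighted to their WT sizes. LP cells were 17.1% of the cells in WT and 22.6% in the mutant.

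A list of genes that respond to tissue dissociation was read beside Dusp6. Of 16 such genes (Fos, Jun, Atf3 and others), 12 were lower and 3 higher in the mutant over all cells without overlap of the libraries (22.5% and 31.8% of all genes). By the 1.5-fold rule 0 were called, where 1.18% of all genes were called lower and 3.24% higher. Against a median log2 difference of 0.02 for all genes tested, that of the 16 was -0.23. Their summed level was 25388 to 26320 CPM in the WT libraries and 21100 to 22004 CPM in the mutant libraries. In LP cells 13 of 16 were lower and 2 higher (18.1% and 23.1% of all genes), with sums of 29724 to 30903 CPM in WT and 24294 to 24697 CPM in the mutant. Hspa1b alone was called there, higher at 5.40 CPM in WT and 8.18 CPM in the mutant, where 2.23% of all genes were called higher and 0.606% lower. In ML cells outside cluster 11 the counts were 11 lower and 3 higher of 16 (26.6% and 25.4% of all genes), with 0 called (1.04% of all genes called lower and 2.67% higher). In cluster 11, 12 were lower and 2 higher (23.6% and 21% of all genes), with 0 called (3.99% of all genes called lower and 0.937% higher). The median there was -0.20, with sums of 29516 to 30329 CPM in WT and 26070 to 26381 CPM in the mutant. Their part in the Dusp6 result was not tested.

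Errfi1, whose product MIG6 blocks the kinases of the EGFR family, was higher in the mutant without overlap of the libraries in LP, LI, ML cells outside cluster 11 and cluster 11. Of all genes, 23.1% were higher without overlap in LP cells, 25.4% in ML cells outside cluster 11 and 21% in cluster 11. The share in LI cells and the share higher in all of these sets at once were not taken. In LP cells the WT libraries had 113.5 and 123.8 CPM and the mutant libraries 146.3 and 154.8 CPM (0.34, interval 0.22 to 0.46). In cluster 11 the WT libraries had 102.9 and 100.9 CPM and the mutant libraries 142.9 and 124.8 CPM (0.38, interval 0.20 to 0.57). In ML cells outside cluster 11 the difference was smaller, at 0.13 (interval 0.08 to 0.19). Errfi1 was higher in 11 of 11 epithelial clusters, as were 3.69% of the genes tested, and the differences ran from 0.01 in cluster 8 to 0.47 in cluster 9. The limits given for the clusters and the share of genes under Dusp6 apply here too. In clusters 2, 4, 5 and 8 the libraries of the genotypes overlapped and the intervals included 0, as did the interval in cluster 9. In LP cluster 2 the difference was 0.09 (interval -0.22 to 0.40). The thinned share of LP cells with a UMI was 10.7% in WT (interval 9.61% to 11.8%) and 13.9% in the mutant (interval 12.6% to 15.2%).

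**Figure D3:**
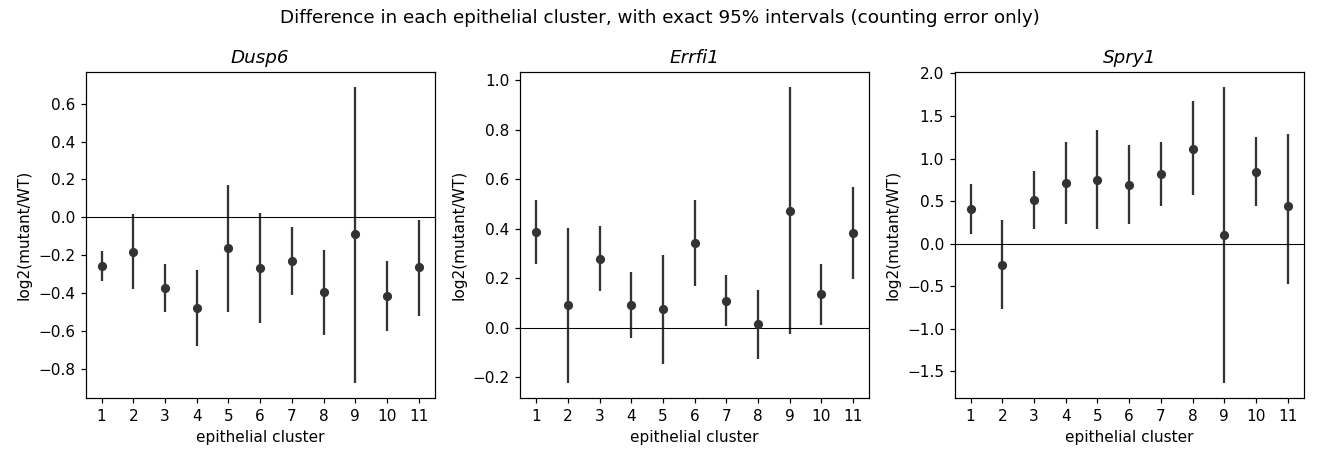
Log2 ratio of mutant to WT CPM of Dusp6, Errfi1 and Spry1 in each of the 11 epithelial clusters, with exact 95% intervals for counting error. All points of Dusp6 lie below 0 and all points of Errfi1 above 0, and the intervals are widest in cluster 9, the cluster with the fewest UMIs.

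Etv5, a PEA3 factor, was higher in the mutant in LP and LI cells taken as classes, but not in each LP cluster. In LP cells the WT libraries had 34.7 and 36.1 CPM and the mutant libraries 39.5 and 46.7 CPM (0.29, interval 0.07 to 0.52), and in LI cells they had 7.97 and 10.7 CPM and 13.05 and 14.02 CPM (0.54, interval 0.08 to 1.00). In cluster 1 the WT libraries had 28.7 and 33.3 CPM and the mutant libraries 39.6 and 41.5 CPM (0.38, interval 0.11 to 0.65), whereas in cluster 2, where Etv5 was highest, the libraries overlapped (0.09, interval -0.32 to 0.51). In ML cells outside cluster 11 the libraries overlapped at 1.65 to 2.38 CPM. Over all cells the difference was 0.43, and at WT cluster sizes it was 0.22. Etv4 was at 10.9 and 12.7 CPM in the WT and 10.6 and 10.3 CPM in the mutant libraries of ML cells outside cluster 11 (-0.18, interval -0.36 to -0.00), and it overlapped in LP and LI cells.

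Dusp5 had a small positive difference over all cells that the LP and ML classes did not share. Over all cells it was at 23.6 and 23.9 CPM in the WT libraries and at 26.2 and 25.4 CPM in the mutant libraries, a difference of 0.12 (interval 0.02 to 0.22). Within LP cells it was at 104.6 and 101.9 CPM in WT and at 99.2 and 97.5 CPM in the mutant (-0.07, interval -0.21 to 0.07), and within ML cells outside cluster 11 the libraries overlapped (-0.09, interval -0.29 to 0.10). They also overlapped in LI cells (0.04, interval -0.20 to 0.27), and the sign was mixed over the epithelial clusters, with the mutant higher in 7 and lower in 4 of 11. With clusters weighted to their WT sizes the difference over all cells was -0.05.

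For Spry2, Spred1, Dusp4 and Spry4, 0 of the differences met the rule. Spry2 overlapped between genotypes in LP (0.01, interval -0.11 to 0.12), in LI (-0.03, interval -0.22 to 0.17) and in ML cells outside cluster 11 (-0.02, interval -0.12 to 0.08). Spred1 had differences of -0.11 in LP (interval -0.35 to 0.14) and -0.07 in ML cells outside cluster 11 (interval -0.22 to 0.08). Dusp4 was at 34.7 and 35.9 CPM in the WT and 30.9 and 31.1 CPM in the mutant libraries of LP cells (-0.19, interval -0.43 to 0.05), and it overlapped in LI cells and in ML cells outside cluster 11. Spry4 had 6.94 and 7.81 CPM in the WT and 10.6 and 8.25 CPM in the mutant libraries of LP cells (0.34, interval -0.16 to 0.83), a level at which the depth could not separate the genotypes. In LI cells Spry4 had 2.66 and 1.93 CPM in the WT and 6.28 and 3.17 CPM in the mutant libraries, 2.07 times as high (log2 difference 1.05, interval 0.19 to 1.97). This rests on 17 UMIs in WT and 37 in the mutant, below the minimum of 50.

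**Figure D4:**
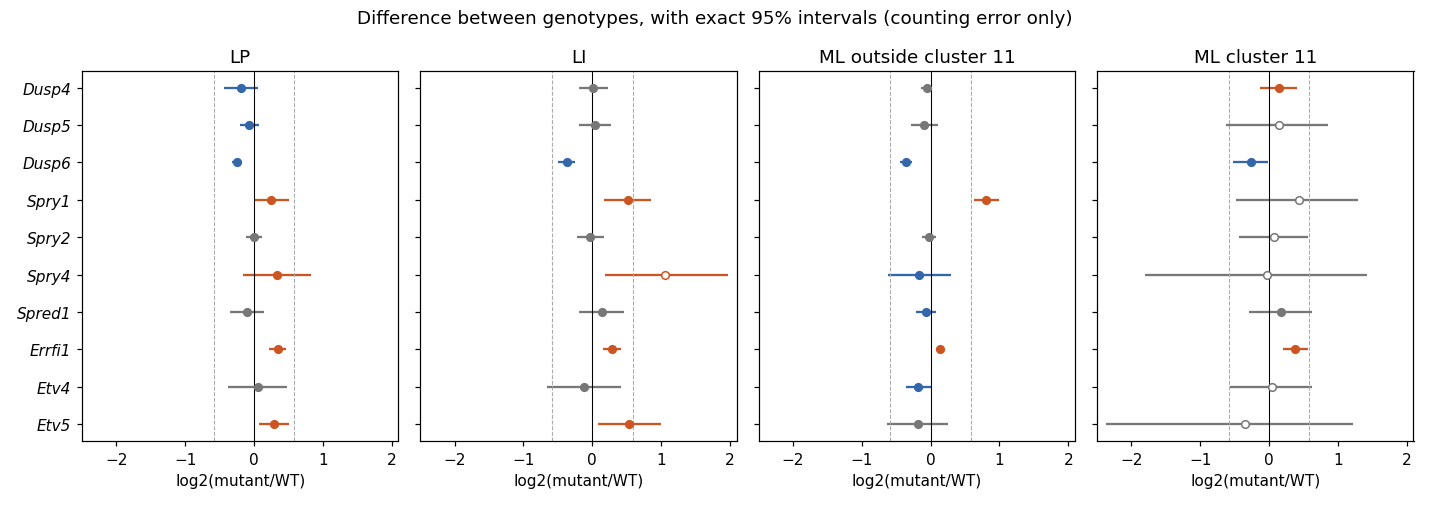
Log2 ratio of mutant to WT CPM for the 10 ERK feedback genes in LP cells, LI cells, ML cells outside cluster 11 and cluster 11, with exact 95% intervals for counting error. Orange and blue mark genes whose mutant libraries both lie above or below both WT libraries, and grey marks overlap. Open circles mark genes with under 50 UMIs in the genotype with the higher level, and the dashed lines are 1.5-fold. Spry1 in ML cells outside cluster 11 is the only filled point beyond a dashed line.

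Other genes of the pathway were read in the same way. Of 29 other inducible ERK targets 28 were tested over all cells, and 0 were called, 9 were higher and 10 lower without overlap of the libraries (31.8% and 22.5% of all genes), with a median of 0.07 against 0.02 for all genes. In LP cells, ML cells outside cluster 11 and cluster 11, more of them were lower than higher without overlap of the libraries. In LP cells 5 of 24 were higher and 11 lower (23.1% and 18.1% of all genes, median -0.08), in ML cells outside cluster 11 these counts were 6 and 10 of 23 (25.4% and 26.6%, median -0.08), and in cluster 11 they were 1 and 10 of 17 (21% and 23.6%, median -0.15). By the 1.5-fold rule, 1 was called in LP cells, Fosl1, an AP-1 subunit, which was lower at 7.63 CPM in WT and 4.72 CPM in the mutant, where 0.606% of all genes were called lower. In cluster 11, 1 of 17 was called, Dusp8, a phosphatase of stress kinases, where 3.99% of all genes were called lower. Dusp8 was lower there, at 15.6 CPM in WT and 8.72 CPM in the mutant (log2 difference -0.84, interval -1.58 to -0.18). This list shares 4 genes with that of the dissociation response. Of 22 core genes of the Ras-ERK cascade (adaptors, Ras, RAF, MEK and ERK), 0 were called over all cells (3.24% of all genes higher and 1.18% lower), in LP cells (2.23% and 0.606%) or among the 21 tested in ML cells outside cluster 11 (2.67% and 1.04%). Without overlap of the libraries, 6 were higher and 1 lower over all cells (31.8% and 22.5% of all genes), 1 and 2 in LP cells (23.1% and 18.1%), 8 and 3 in ML cells outside cluster 11 (25.4% and 26.6%), and 4 and 4 in cluster 11 (21% and 23.6%). By the 1.5-fold rule, 1 of 17 was called in cluster 11, the exchange factor Sos1, with the same 3.99% over all genes. Sos1 was lower, at 7.12 CPM in WT and 3.32 CPM in the mutant (log2 difference -1.10, interval -2.37 to -0.04). For Sos1 and Dusp8 the minimum of UMIs was asked of WT, the higher genotype, and not of the mutant. The mutant had 2407631 UMIs in this cluster against 9405963 in WT, so both calls rest on low mutant counts. Among the receptor genes tested (9 over all cells and in LP cells, 6 in ML cells outside cluster 11 and 4 in cluster 11), 1 was called in each of these sets, Erbb3, which was lower, from 1.80-fold in cluster 11 to 2.16-fold in ML cells outside it. The shares of all genes called lower were 1.18% over all cells, 0.606% in LP cells, 1.04% in ML cells outside cluster 11 and 3.99% in cluster 11. The limit on counting cassette mRNA as Erbb3 applies here too.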

How the data were processed

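The submitters' processing notes name bcl2fastq 2.20, CASAVA 1.8, GSNAP 2013-10-10 and GRCm38, and the study's methods name Seurat clustering at a resolution of 0.6. The deposited table holds a signal, the UMIs of a cell scaled by 1 factor, and lists for every cell its library, genotype, cluster and class. To recover UMIs, the values of a cell were divided by the lowest of them above 0, and 100% of 60853305 quotients lay within 0.02 of a whole number. No count model was fitted, because the columns also hold the cluster number of each cell and a check of the recovery over whole columns failed on it. UMIs were summed per library, genotype, class and cluster over all 32439 cells. No doublet caller was run.

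The members, gene lists and rules were chosen with earlier results of these data known. All 10 members are named. Genes of other lists are named where they were called or give context, and the 3 genes with the highest correlation are named for members with at least 500 UMIs in WT. For thinning to 1000 UMIs, 45 WT and 252 mutant cells were left out as shallower. The deposited table does not carry replicate numbers, so libraries are called A and B with no order between genotypes. The rule and an alternative with limma on log2 CPM of library sums (0.5 UMIs added) were tested on simulated data for ML cells outside cluster 11 (16358 genes). Genes raised 2-fold were found in 96% of cases by the rule and 94% by limma, and genes lowered 2-fold in 86% and 80%. At 1.5-fold the rule found 32% of raised and 30% of lowered genes, and limma 70% and 68%. Of unchanged genes, 0.452% were called by the rule and 0.0186% by limma. The simulated noise was that between the WT libraries, which share a pool. It held no spread between pools, so these shares do not describe a comparison of 1 pool with another. The other alternatives were other folds, minimums and scalings, means over cells, and leaving out cells or a library. Software was Python 3.11.15, numpy 2.4.6, pandas 2.3.3, scipy 1.17.1, matplotlib 3.10.9, R 4.3.3 and limma 3.58.1. Gene positions are those of GENCODE for GRCm38.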

Additional observations from a re-analysis of the deposited data

Results flagged for a closer look

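Among LP cells, LI cells, ML cells outside cluster 11 and cluster 11, the mutant libraries of Dusp4 and of Spry4 lay on opposite sides of WT in different sets. Single clusters within these sets were not compared in this way. Dusp4 had log2 differences of 0.14 in cluster 11 and -0.19 in LP cells, a gap of 0.33 between the differences. Spry4 had log2 differences of 0.34 in LP cells and -0.16 in ML cells outside cluster 11, a gap of 0.50. The gaps were not tested, and the interval of each of these 4 differences includes 0. Spry4 in LI cells, at 1.05 (interval 0.19 to 1.97), had under 50 UMIs in each genotype and was left out of this comparison.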

How the results depend on the processing

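Counts of called members depended mainly on the fold. At 1.2-fold, 3 members were called over all cells (Spry1, Spry4 and Etv5), 3 in LP cells (Spry4, Errfi1 and Etv5), 2 in ML cells outside cluster 11 (Dusp6 and Spry1) and 2 in cluster 11 (Dusp6 and Errfi1). At this fold, the shares of all genes called higher and lower were 15.9% and 5.24% over all cells, 11.2% and 5.62% in LP cells, 13.2% and 5.89% in ML cells outside cluster 11, and 9.32% and 12.5% in cluster 11. At 2-fold, 0 members were called in any of these, where the shares of all genes were 0.415% and 0.244%, 0.196% and 0.0535%, 0.338% and 0.176%, and 0.0616% and 1.02% in the same order. Under limma, whose replicates are libraries of the same pools, 1 was called in LP cells (Errfi1), 2 in ML cells outside cluster 11 (Dusp6 and Spry1), 1 over all cells (Spry1) and 0 in cluster 11, where limma called 1.75%, 3.8%, 4.92% and 0.221% of all genes. A minimum of 20 UMIs or none, no rule on libraries, median-of-ratios size factors, means over cells, dropping the shallowest 10% or the deepest 6% of cells, and leaving out each library left the counts at 1 over all cells, 0 in LP cells, 1 in ML cells outside cluster 11 and 0 in cluster 11. Of 40 differences (10 members in 4 sets of cells), 23 kept their sign in every alternative. Those of Dusp6 (-0.44 to -0.11) and Errfi1 (0.10 to 0.49) kept it in all 4 sets, and that of Spry1 kept it over all cells, in LP cells and in ML cells outside cluster 11 but not in cluster 11. Dusp5 over all cells changed sign at WT cluster sizes. No paired analysis was possible because the deposited table does not carry the replicate numbers of the libraries.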
